A study of Rattus norvegicus with 30 samples.

Results

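Reactive astrocyte genes were examined together with Lcn2 in brain tissue of WT, HIP and AKO rats. The genes were chosen by symbol: Gfap, Vim, Lcn2, Serpina3n, Cd44, Osmr, Timp1, Aqp4, S100a6 and Hspb1. Of these 10 symbols, 9 were found among the 17134 genes measured. Serpina3n was not matched by symbol and is not analysed here. Lcn2 was picked because it differed between HIP and AKO rats, so its values in that contrast are a description and carry no test. Astrocytes answer injury, inflammation and metabolic stress with reactive gliosis, in which they enlarge and change the genes they express. Filament proteins such as GFAP and vimentin, secreted acute-phase proteins such as lipocalin 2 and TIMP1, and the receptor for oncostatin M belong to this response, and much of it runs through cytokines of the IL-6 family and the transcription factor STAT3. The genes are not private to astrocytes, since vimentin is also made by fibroblasts and vessel cells, and lipocalin 2 by neutrophils.

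RNA was sequenced from 30 male rats on a normal diet, 10 per group. WT rats express rat amylin only. HIP rats express human amylin in the β-cells of the pancreas and develop type-2 diabetes, so human amylin and diabetes cannot be told apart in them. HIP and WT rats were 15 to 16 months old, and AKO rats are amylin knockout rats. The age of the AKO rats in these libraries is not given in the sources used here, while other AKO rats whose brains the study used were 15 to 16 months old. The tissue is called frontal cortex in the sample annotation, cerebral cortex in the methods and hippocampus in the results of the study. Values are normalized counts, the reads per gene scaled between rats by DESeq2. Totals were 15.4 to 17.98 M (mega) per rat, and 1 read was worth 0.727 to 1.37 normalized counts. In bulk tissue, fewer cells of a type and less RNA per cell cannot be told apart. Levels of different genes are not compared, since the values are not scaled by gene length.

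The 18 genes listed for astrocyte identity and housekeeping were all measured, with mean log2 levels of 11.9 to 12.3 in WT rats, 12.0 to 12.4 in HIP rats and 11.8 to 12.4 in AKO rats. Some libraries stood apart in tissue markers. WT rat 10RT43 had a mean log2 level of 13.02 for cerebellum markers, where the other WT rats had 4.37 to 5.48, and 4.36 for neocortical layer markers, the lowest of all rats. HIP rat 12RT23 had 9.99 for cerebellum markers, and HIP rat 10RT46 had 10.3 for pineal gland markers and 9.18 for choroid plexus markers. AKO rat 4KAH27 stood apart in Lcn2, Cd44, Osmr, Timp1 and Hspb1, and AKO rat 4KAH35 in Vim. Both had higher mean log2 levels of neutrophil markers than all other rats, 4.62 in 4KAH27 and 5.21 in 4KAH35.

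No reactive astrocyte gene passed the test between HIP and WT rats, and 5 of 9 passed an unadjusted but not an adjusted threshold between AKO and WT rats. Groups were compared on log2(normalized count + 1), a scale that understates changes of low genes, by limma, two-sided, with Benjamini-Hochberg adjustment over every gene whose mean reached 1. In HIP vs. WT, 439 of 17085 genes tested (2.57%) had an unadjusted p-value under 0.05, and 0 of the 9 members were among them. After adjustment 0 of all genes (0.0%) and 0 members passed. The median difference of the 9 genes was −0.01, and that of all genes was 0.00. In AKO vs. WT, 5 members had an unadjusted p-value under 0.05 (Vim, Lcn2, Cd44, Timp1 and S100a6), all with the higher mean in AKO rats. Of all 17058 genes tested, 1594 did so (9.34%), 892 of them higher in AKO rats (5.23%). Leaving out 1 rat gave 3 to 6 such members, 3 without any of 10RT38, 10RT39, 10RT44, 10RT47, 4KAH35 and 7AKO42. Leaving out both 4KAH27 and 4KAH35 left 2, against 1555 of 17035 genes (9.13%), and 5.14% with the higher mean in AKO rats. With all rats, none of the members had an adjusted p-value under 0.05, which 17 of all genes had (0.0997%). With sample-quality weights, which count libraries that stand apart for less, 4 passed (Gfap, Vim, Lcn2 and Timp1), against 857 of all genes. The median difference was 0.44 for the 9 genes and 0.00 for all genes. In HIP vs. AKO, 6 members passed the unadjusted threshold (Gfap, Vim, Lcn2, Timp1, S100a6 and Hspb1), all with the lower mean in HIP rats, against 2179 of 17092 genes (12.7%) and 1179 with the lower mean in HIP rats (6.9%). Lcn2 was picked on this contrast, and without it the count was 5. With adjustment only Lcn2 was left, against 29 of all genes (0.17%), and nothing is read from this count because Lcn2 was picked on it. The comparisons share groups and are not independent of each other.

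**Figure D1:**
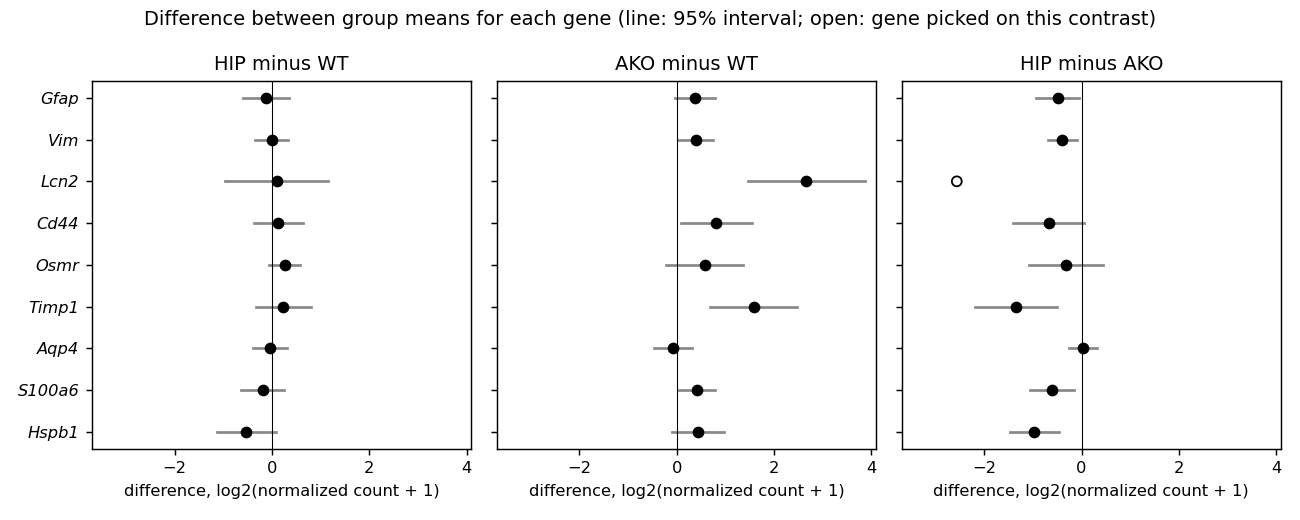
Difference between group means of log2(normalized count + 1) for each gene (x axis) in HIP vs. WT, AKO vs. WT and HIP vs. AKO (panels), n = 10 rats per group. Points are differences and lines their 95% intervals from limma. All HIP vs. WT intervals include 0, and the point of Lcn2 lies farthest from 0 in both panels with AKO rats. The open point of Lcn2 in HIP vs. AKO has no interval because the gene was picked on that contrast.

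Lcn2 encodes lipocalin 2, a secreted protein that binds iron-carrying siderophores and is made by reactive astrocytes, neutrophils and other cells in acute-phase responses. Its normalized counts were 0 to 15.2 in WT rats (median 6.10), 1.04 to 8.13 in HIP rats (median 5.10) and 13.6 to 281 in AKO rats (median 23.4). Every AKO rat was above every HIP rat, and 9 of 10 AKO rats were above the highest WT rat. In HIP vs. AKO, Lcn2 was the only gene of 17092 tested (0.00585%) whose values did not overlap between the groups, which is no separate evidence because the gene was picked on this contrast. These values rest on few reads: an estimated 0 to 20 reads in WT rats, 1 to 7 in HIP rats and 13 to 205 in AKO rats. At 3 reads or fewer stood 4 WT rats, 2 of them at 0, and 4 HIP rats, but 0 AKO rats. A count of 0 allows up to 3 reads, for counting error only. The AKO range is led by rat 4KAH27 with 281, and the next highest AKO rat, 7AKO42, had 45.8. The 4 AKO rats with KAH in their names had 13.6 to 281 (median 19.3) and the 6 with AKO in their names had 15.7 to 45.8 (median 24.9).

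The mean log2 difference of Lcn2 in AKO vs. WT was 2.66 ± 0.58 (SE, n = 10 per group, limma, p = 0.000159, adjusted p = 0.0790), a fold of 6.34 on this scale. The AKO rats in it are those of the contrast on which Lcn2 was picked, so this p-value is not independent of the choice. Without rat 4KAH27 the difference was 2.30 (p = 0.000185, adjusted p = 0.0581), and without 4KAH27 and 4KAH35 it was 2.29 (adjusted p = 0.0930). With all 30 rats in 1 fit, which pools the spread of the 3 groups, the adjusted p-value was 0.0154. In HIP vs. WT the difference was 0.10 with a 95% interval of −0.96 to 1.16 (p = 0.846), so a difference was not detectable at this depth, and the interval holds sizable differences either way. Between HIP and AKO rats the difference was −2.56 ± 0.43, and −2.20 without rat 4KAH27. The order of the levels was thus AKO above WT and HIP, and the last 2 overlapped over most of their ranges.

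**Figure D2:**
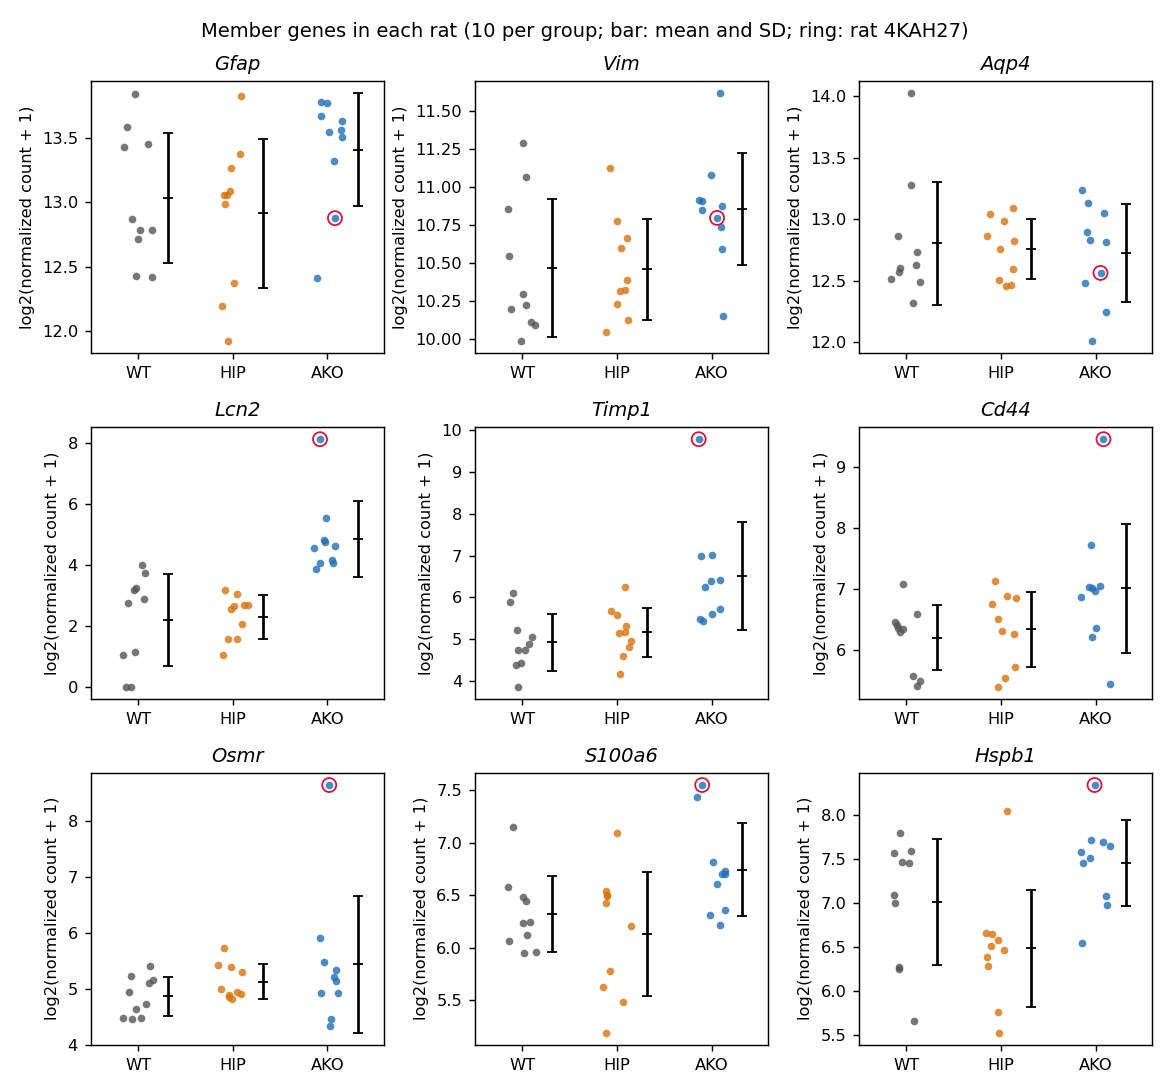
Each panel plots 1 gene as log2(normalized count + 1) in every rat (points, 10 per group), with the mean and SD of the group beside them. The ring marks AKO rat 4KAH27, the highest rat for Lcn2, Timp1, Cd44, Osmr, S100a6 and Hspb1 and an unremarkable one for Gfap, Vim and Aqp4. The axes are logarithmic and do not start at 0.

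Promoters of 4 of these genes are shown because 3 of them (Lcn2, Timp1 and Osmr) were high together in rat 4KAH27 and the fourth (Hspb1) had the smallest p-value of HIP vs. AKO after Lcn2. Each is the 250 bases before the transcription start, 5′ to 3′ on the strand of the gene, from RefSeq on GRCr8. Windows of 8 of the 9 genes were searched, and Aqp4 was left out. Capitals mark the motifs searched on both strands: a STAT site (TTCNNNGAA), a heat shock element (GAANNTTC), an AP-1 site (TGANTCA) and an NF-kB site (GGGNNTTTCC).
Lcn2 (chr3:36081781-36082030, minus strand): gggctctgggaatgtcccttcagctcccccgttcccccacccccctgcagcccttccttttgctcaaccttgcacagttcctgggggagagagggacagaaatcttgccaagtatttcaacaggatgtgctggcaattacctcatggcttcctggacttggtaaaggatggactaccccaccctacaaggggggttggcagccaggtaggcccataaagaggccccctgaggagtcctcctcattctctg
Timp1 (chrX:3771123-3771372, minus strand): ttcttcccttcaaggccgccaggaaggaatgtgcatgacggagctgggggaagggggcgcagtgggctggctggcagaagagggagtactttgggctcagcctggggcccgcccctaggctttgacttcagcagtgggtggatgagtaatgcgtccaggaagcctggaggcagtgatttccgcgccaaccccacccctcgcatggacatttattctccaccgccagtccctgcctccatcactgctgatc
Osmr (chr2:57688562-57688811, minus strand): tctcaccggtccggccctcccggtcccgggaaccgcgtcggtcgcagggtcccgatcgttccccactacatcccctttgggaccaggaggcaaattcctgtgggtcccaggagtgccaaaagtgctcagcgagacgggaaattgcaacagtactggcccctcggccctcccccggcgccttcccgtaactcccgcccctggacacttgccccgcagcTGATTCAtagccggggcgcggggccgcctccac
Hspb1 (chr12:26432302-26432551, minus strand): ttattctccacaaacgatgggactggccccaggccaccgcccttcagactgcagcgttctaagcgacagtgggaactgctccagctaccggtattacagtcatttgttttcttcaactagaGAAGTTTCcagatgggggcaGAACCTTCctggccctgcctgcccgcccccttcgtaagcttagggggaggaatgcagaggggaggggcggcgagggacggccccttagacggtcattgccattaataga
Hspb1 held 2 heat shock elements, at bases −129 to −122 and −109 to −102 from the start. A heat shock element was in 7.23% of the 33469 promoter windows of the table. Osmr held an AP-1 site at bases −33 to −27, a motif in 6.34% of the windows. No STAT site or NF-kB site in these letters was in any of the 8 windows, against 7.67% and 1.3% of all windows. Other forms of these sites were not searched, so the windows may hold them. The motifs did not overlap, and a match is a description of the letters and not a site of binding.

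In AKO vs. WT, 9.34% of all genes tested had an unadjusted p-value under 0.05, and 5.23% did so with the higher mean in AKO rats. Of 12 genes measured among partners of lipocalin 2 and iron handling, 1 did, near the share of all genes. After adjustment 0 of the 12 passed (median difference 0.22). The gene under 0.05 was Cp, ceruloplasmin, a ferroxidase, at 123 to 345 in WT rats (median 158.2) and 144.7 to 631 in AKO rats (median 244). Its difference was 0.57 ± 0.26 (adjusted p = 0.494), and 0.32 without rats 4KAH27 and 4KAH35 (p = 0.172). Slc22a17, a receptor for lipocalin 2, had a median of 14188 in WT rats, 13504 in HIP rats and 16380 in AKO rats. Its difference was 0.23 ± 0.13 in AKO vs. WT (p = 0.0790) and −0.22 ± 0.09 in HIP vs. AKO (p = 0.0196, adjusted p = 0.307). Hmox1, heme oxygenase 1, ranged from 86.7 to 1040 in AKO rats, the top value in rat 4KAH27 and the next highest at 154.8. In HIP rats it was 53.3 to 116 and in WT rats 77.4 to 132.7, a difference of −0.31 ± 0.15 in HIP vs. WT (p = 0.0502). Steap3, an endosomal ferrireductase, had the other small p-value of HIP vs. WT in this list, 0.26 ± 0.16 (p = 0.121).

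Timp1, which encodes a secreted inhibitor of matrix metalloproteinases, came closest to Lcn2. It was 13.5 to 68.2 in WT rats (median 27.2), 16.9 to 74.7 in HIP rats (median 34.7) and 42.03 to 885 in AKO rats (median 79.5). All 10 AKO rats were above the WT median and 6 were above the highest WT rat, while the HIP and WT ranges nearly coincided. The difference in AKO vs. WT was 1.58 ± 0.43 (SE, limma, p = 0.00141, adjusted p = 0.192), and without rat 4KAH27 it was 1.22 (p = 0.000391, adjusted p = 0.0833). The HIP vs. AKO difference was −1.35 ± 0.41 (p = 0.00335, adjusted p = 0.198), and 7 of 10 HIP rats lay below the lowest AKO rat. In HIP vs. WT it was 0.24, with a 95% interval of −0.33 to 0.81.

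Cd44 and Osmr code for receptors. CD44 binds hyaluronan at the cell surface, and OSMR is the receptor chain for oncostatin M. Cd44 was 41.6 to 134.1 in WT rats (median 80.6), 41.1 to 140 in HIP rats (median 84.3) and 42.5 to 699 in AKO rats (median 126). Its groups shared their lowest values, and 8 AKO rats were above the WT median. The difference in AKO vs. WT was 0.81 ± 0.35 (p = 0.0306, adjusted p = 0.480), and without rats 4KAH27 and 4KAH35 it was 0.42 (p = 0.112). Leaving out only 1 of 4KAH35, 10RT38, 10RT44 or 10RT47 took its p-value to 0.0539 to 0.0572. Osmr was 21.0 to 41.6 in WT rats (median 27.8), 27.2 to 52.3 in HIP rats (median 30.2) and 19.2 to 399 in AKO rats (median 35.2). The 3 groups overlapped over nearly all of their rats. Osmr differed by 0.57 ± 0.38 in AKO vs. WT (p = 0.145), and by 0.22 without rat 4KAH27 (p = 0.287). In HIP vs. AKO its difference of −0.31 ± 0.37 became 0.05 without that rat, so the sign of the mean rests on 1 library.

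The filament genes and Aqp4 had smaller differences. Gfap, the glial fibrillary acidic protein that defines reactive astrocytes in tissue stains, was 5482 to 14702 in WT rats (median 7286), 3885 to 14498 in HIP rats (median 8529) and 5456 to 14085 in AKO rats (median 12037). The 3 ranges coincided, but 9 of 10 AKO rats lay above the WT median. The difference was 0.38 ± 0.20 in AKO vs. WT (p = 0.0705, adjusted p = 0.560), −0.49 ± 0.21 in HIP vs. AKO (p = 0.0275, adjusted p = 0.331) and −0.12 in HIP vs. WT (95% interval −0.59 to 0.36). Without any 1 of the HIP rats 10RT41, 10RT42 and 10RT52 the HIP vs. AKO p-value was 0.0546 to 0.0615. Vim, the vimentin filament gene, was 1014 to 2510 in WT rats (median 1226), 1055 to 2237 in HIP rats (median 1309.9) and 1135 to 3142 in AKO rats (median 1863). Its AKO vs. WT difference was 0.39 ± 0.17 (p = 0.0377, adjusted p = 0.4997), and its HIP vs. AKO difference was −0.39 ± 0.15 (p = 0.0126, adjusted p = 0.272). The highest Vim value, 3142, was that of AKO rat 4KAH35. Without it the AKO vs. WT difference was 0.30 (p = 0.0812). Leaving out 1 of 9 other rats also took the Vim p-value over 0.05, to between 0.0511 and 0.0733. Aqp4, the water channel of astrocyte end-feet, was 5112 to 16620 in WT rats (median 6273), 5631 to 8729 in HIP rats (median 7087) and 4126 to 9633 in AKO rats (median 7233). Its differences were −0.08 in AKO vs. WT (95% interval −0.47 to 0.32), −0.04 in HIP vs. WT (−0.39 to 0.30) and 0.03 in HIP vs. AKO (−0.25 to 0.32). The value of 16620 was that of rat 10RT43, the library rich in cerebellum markers.

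Gfap and Vim varied along with markers of neighbouring tissue. Over the 30 rats, deviations of Gfap from the group mean went with those of 6 olfactory bulb markers (Pearson's r = 0.61, Spearman's rho = 0.73), and deviations of Vim with those of 9 meningeal fibroblast markers (r = 0.82, rho = 0.78). Without the 5 libraries that stood apart, r was 0.73 and 0.77. Some other members also went with such markers. For Timp1 and the meningeal markers r was 0.25, and 0.69 without rat 4KAH27. For Cd44 and the bulb markers r was 0.28, and 0.55 without that rat. For Aqp4 and the meningeal markers r was 0.56. Lcn2 had −0.18 with the meningeal and −0.21 with the bulb markers. These are descriptions over rats whose points share library and dissection. Olfactory bulb markers had a mean log2 level of 3.82 to 9.61 in WT rats, 3.68 to 8.64 in HIP rats and 3.83 to 9.40 in AKO rats, so the bulb-rich libraries were in all groups. Meningeal fibroblast markers ran from 7.63 to 9.01, 7.64 to 9.07 and 7.82 to 9.34. With the bulb markers as a covariate, the Gfap difference in AKO vs. WT was 0.31 (p = 0.0450, adjusted p = 0.488). With the meningeal markers as a covariate, the Vim difference was 0.28 (p = 0.0202, adjusted p = 0.416).

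**Figure D3:**
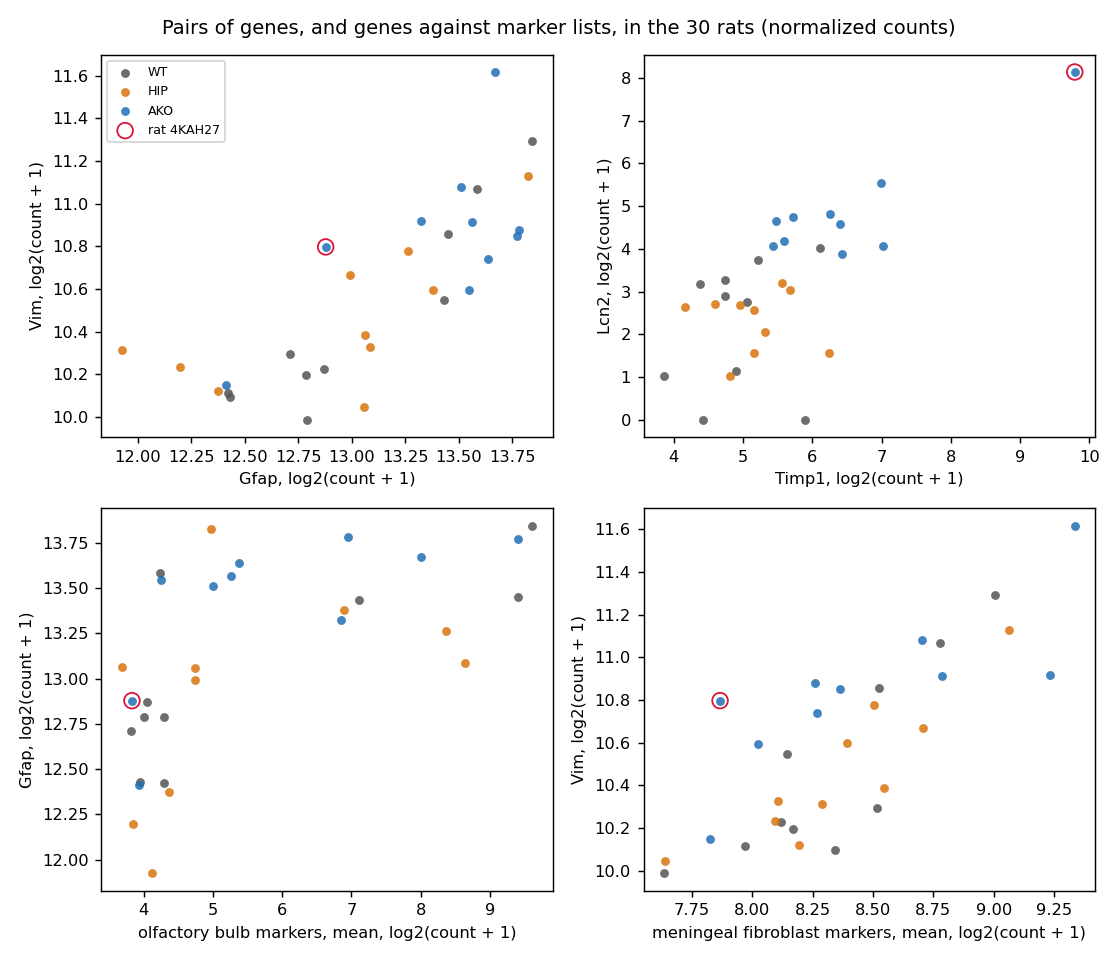
Each point is a rat, coloured by group, on axes of log2(normalized count + 1), with a ring around rat 4KAH27. Upper panels plot Vim against Gfap (r = 0.75 for deviations from the group mean) and Lcn2 against Timp1 (r = 0.48, and 0.14 without the ringed rat). Lower panels plot Gfap against the mean of olfactory bulb markers (r = 0.61) and Vim against the mean of meningeal fibroblast markers (r = 0.82).

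S100a6 and Hspb1 had the most negative differences of the members in HIP vs. WT, without passing the test. S100a6, a calcium-binding protein of the S100 family, was 60.7 to 140.9 in WT rats (median 74.6), 35.5 to 135.8 in HIP rats (median 78.9) and 73.1 to 187 in AKO rats (median 103). AKO rats lay above the WT median in 9 of 10 cases, with a difference of 0.42 ± 0.18 (p = 0.0280, adjusted p = 0.474). It was 0.33 without rat 4KAH27 (p = 0.0586) and 0.34 without 7AKO42 (p = 0.0605), and the p-value was 0.0516 without 10RT39 and 0.0518 without 10RT57. Against AKO rats, HIP rats differed by −0.61 ± 0.22 (p = 0.0112, adjusted p = 0.264), and against WT rats by −0.19 (95% interval −0.63 to 0.25). Hspb1, a small heat shock protein that guards filaments and misfolded proteins, was 49.5 to 222 in WT rats (median 154.9), 45.2 to 264 in HIP rats (median 88.8) and 92.6 to 324 in AKO rats (median 186). Only 1 HIP rat, 10RT46, was above the WT median, and the next highest HIP rat had 100.1. The HIP vs. AKO difference was −0.97 ± 0.24 (p = 0.000590, adjusted p = 0.104), and without 10RT46 it was −1.14 (adjusted p = 0.0108), past the threshold. In HIP vs. WT it was −0.53 ± 0.29 (p = 0.0846), and −0.70 without 10RT46 (p = 0.0127, adjusted p = 0.891). The library of 10RT46 was high in pineal gland and choroid plexus markers, and the part of that tissue in its Hspb1 value was not tested.

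AKO rat 4KAH27 set the upper end of many of these ranges. Of the 9 genes, 6 had their highest value of all 30 rats in it, while it was the highest rat in 11.04% of the 17103 genes whose mean reached 1. Its values were 12.3 times the median of the other 9 AKO rats for Lcn2, 11.7 times for Timp1, 11.6 times for Osmr, 5.66 times for Cd44, 1.81 times for S100a6 and 1.79 times for Hspb1. For Vim, Aqp4 and Gfap the ratios were 0.946, 0.833 and 0.621, and its rank for Gfap was 20 of 30. The secreted and receptor genes were thus high in this rat and the filament genes were not. Of 14 genes of the IL-6 family and STAT3 signalling, 10 were highest in it. Lif, leukaemia inhibitory factor, a cytokine of the family, was 295 there and at most 7.32 in any other rat. Socs3, the feedback inhibitor of STAT3 signalling, was 1062 there and at most 110 elsewhere. Stat3 itself was 3023 against at most 1542, and Il6 27.4 against at most 4.57. The receptor gene Lifr and the kinase genes Jak1 and Jak2 were near the other AKO rats, with ratios of 0.968, 1.05 and 0.895 to their median. The same rat had the highest S100a8 (130.3) and S100a9 (197), genes of neutrophils and other myeloid cells, and the lowest mean level of microglia markers among AKO rats, 8.14. Of all 30 rats it had the lowest mean log2 level of astrocyte identity (11.76), endothelium (8.24) and mural cell markers (8.13). Aldh1l1, a folate enzyme that marks astrocytes, was 31.5 in it, 0.0925 times the median of the other AKO rats and the lowest of all. It also had the highest striatum marker level of the AKO rats, 10.7. The part of these in its values was not tested.

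**Figure D4:**
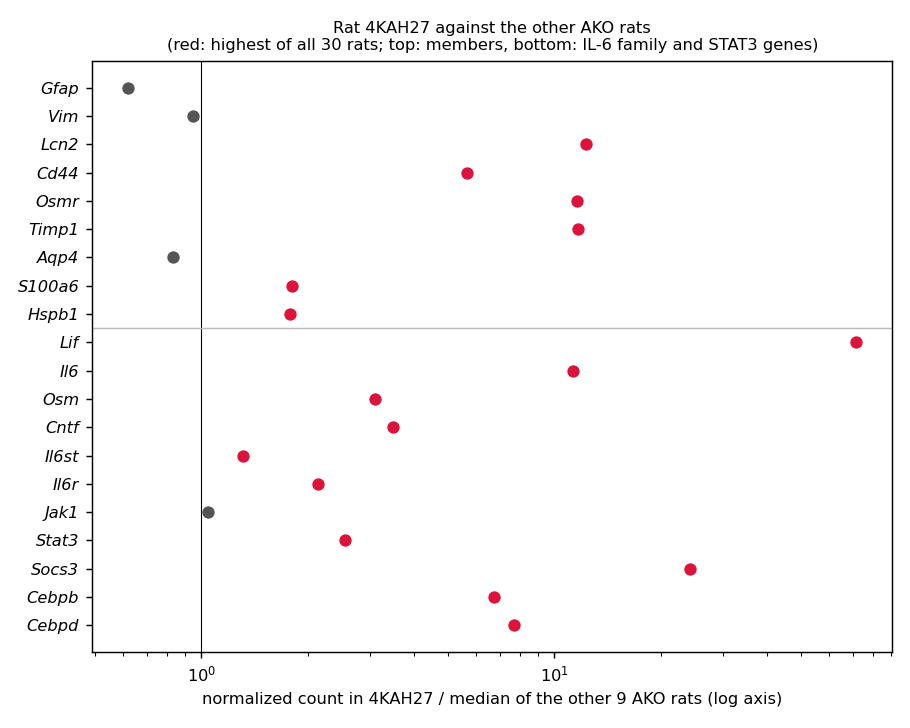
Ratio of the normalized count in AKO rat 4KAH27 to the median of the other 9 AKO rats (x axis, logarithmic) for the reactive astrocyte genes (top) and genes of the IL-6 family and STAT3 signalling (bottom). Red points are genes with their highest value of all 30 rats in 4KAH27. Lcn2, Osmr and Timp1 lie between 11.6 and 12.3, Lif and Socs3 lie beyond them at 71.6 and 24.2, and Gfap, Vim and Aqp4 lie below 1.

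The members did not vary as a single group. Over the 30 rats, deviations from the group mean were compared for all 36 pairs, of which 16 had a Pearson's r over 0.4 and 5 an r below 0. The astrocyte structure genes went together: r was 0.75 for Gfap and Vim (rho = 0.76), 0.62 for Vim and Aqp4 and 0.51 for Gfap and Aqp4. Timp1 went with Osmr (r = 0.72), Cd44 (0.69) and S100a6 (0.65). Lcn2 stood off from Gfap (r = −0.15) and Vim (−0.05) and had its largest values with Timp1 and Osmr (both 0.48). Much of this second pattern rested on rat 4KAH27. Without it, r fell to 0.26 for Timp1 and Osmr, 0.14 for Lcn2 and Timp1 and 0.02 for Lcn2 and Osmr. Cd44 then went with Gfap (r = 0.82, against 0.48 with all rats) and Timp1 with Vim (0.69) and Gfap (0.57). The pair of Timp1 and S100a6 kept 0.62. Among the other rats, the largest r of Lcn2 with any other member was 0.21 (S100a6), at levels of few reads in WT and HIP rats.

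**Figure D5:**
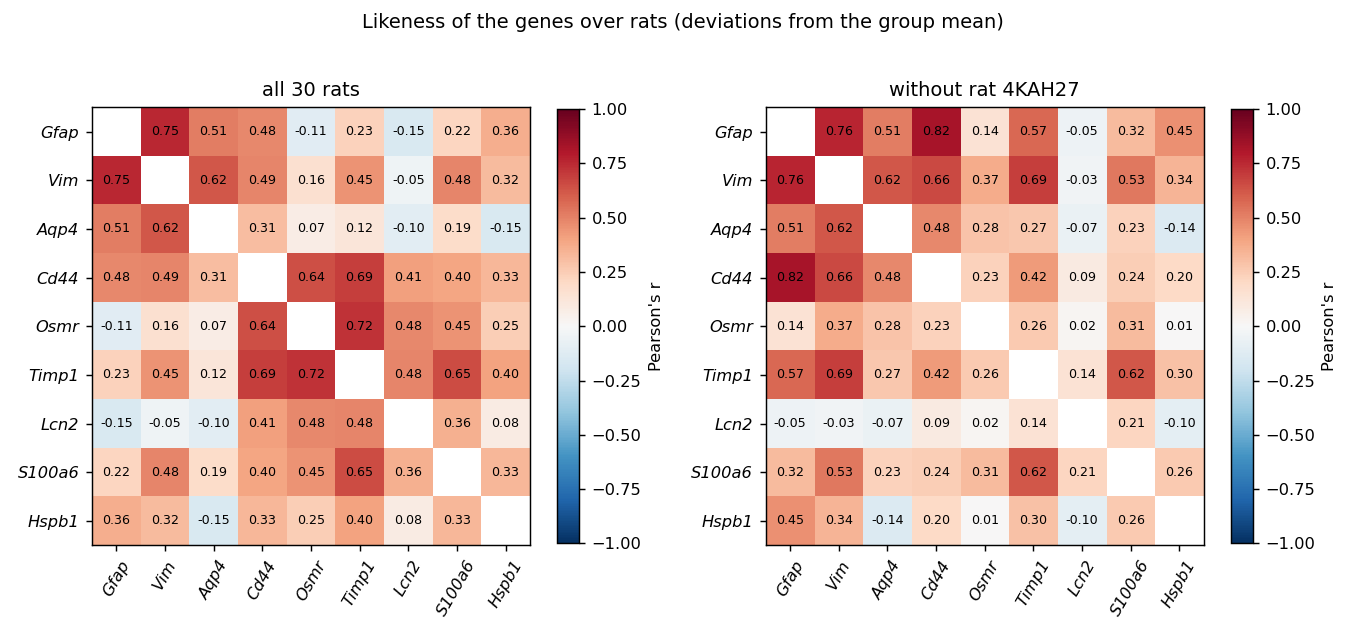
Pearson's r between the deviations of each pair of genes from their group means, over all 30 rats (left) and without AKO rat 4KAH27 (right), from −1 (blue) to 1 (red). On the left a block of Cd44, Osmr and Timp1 has r of 0.64 to 0.72. On the right Cd44 goes with Gfap instead (0.82) and the row of Lcn2 is near 0.

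Among all 15525 other genes with a mean of at least 10, the genes most like Gfap, Vim, Timp1 and Lcn2 were named by the largest r. For Gfap they were Cotl1 (0.90), A2m (0.89), S100a4 (0.83), Hdac1 (0.82) and Lcat (0.82), and r without 10RT43 and 10RT46 was 0.89, 0.89, 0.83, 0.795 and 0.85. Their rho was 0.83 to 0.90. A2m encodes a protease inhibitor and Lcat an enzyme of cholesterol esterification. For Vim they were Mxra8 (0.92), Serping1 (0.91), Fbln1 (0.91), Omd (0.90) and Olfml3 (0.89), with rho of 0.89, 0.87, 0.85, 0.89 and 0.87 and r of 0.88 to 0.94 without 10RT43 and 10RT46. Fbln1 and Omd encode matrix proteins, and Serping1 an inhibitor of complement C1. For Timp1 they were Ifitm3 (0.85), Socs3 (0.85), Slc3a2 (0.83), Gpr4 (0.82) and Mgst2 (0.82). These r values were 0.82 to 0.85 without 10RT43 and 10RT46 but 0.68, 0.62, 0.60, 0.58 and 0.66 without rat 4KAH27, and rho over all rats was 0.70, 0.61, 0.64, 0.61 and 0.71. For Lcn2 they were Arid5a (0.71), Atp6ap1 (0.67), Diaph1 (0.66), Gclc (0.66) and Adamts1 (0.65). Without rat 4KAH27 they were 0.57, 0.57, 0.48, 0.46 and 0.44, and rho over all rats was 0.66, 0.64, 0.57, 0.61 and 0.60. Without 10RT43 and 10RT46 the r values for Lcn2 were 0.65 to 0.71. Arid5a encodes an RNA-binding protein that stabilises Il6 mRNA, and Gclc the catalytic subunit of the first enzyme of glutathione synthesis. None of the other members was among these 20, and the rank of Timp1 was 162 in likeness to Lcn2, while that of Gfap was 11732.

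Wider lists of reactive astrocyte genes differed in how many members passed the unadjusted threshold in AKO vs. WT, and none passed adjustment with all rats. Of all genes tested, 9.34% had an unadjusted p-value under 0.05 and 5.23% did so with the higher mean in AKO rats. The lists share genes with the members, so they are not separate evidence. Below, higher and lower genes of a list are those with an unadjusted p-value under 0.05. Of 12 pan-reactive genes, 6 had an unadjusted p-value under 0.05 with the higher mean in AKO rats and 1 with the lower (median difference 0.57). Beyond Lcn2, Timp1, Cd44 and Vim, the higher ones were Cp and Aspg, an asparaginase (1.31 ± 0.40, p = 0.00331, adjusted p = 0.273). The lower was Steap4, a metalloreductase (−1.21 ± 0.40, p = 0.00664, adjusted p = 0.347). Without rats 4KAH27 and 4KAH35, Lcn2, Timp1 and Aspg were the 3 higher genes of this list, and Steap4 fell past the adjusted threshold (−1.71 ± 0.29, adjusted p = 0.0158). Of 8 A1-type genes, 2 were higher: Srgn, a proteoglycan core protein (0.36 ± 0.15, p = 0.0237), and Gbp2, an interferon-induced GTPase (0.48 ± 0.22, p = 0.0389). Without the same 2 rats 0 were, with Srgn at p = 0.0740 and Gbp2 at p = 0.177. Of 11 A2-type genes, 1 was higher, the transporter gene Slc10a6 (0.98 ± 0.26, p = 0.00112, adjusted p = 0.182), at 6.68 to 39.4 in WT rats (median 22.9) and 29.1 to 53.7 in AKO rats (median 39.7). Cd109 had the next smallest p-value of that list (0.58 ± 0.29, p = 0.0592). Genes of astrocyte identity and housekeeping had 1 higher and 1 lower of 18, with a median difference of 0.02. These were Mlc1, a membrane protein of astrocyte end-feet (0.20 ± 0.07, p = 0.00928), and Agt, angiotensinogen (−0.46 ± 0.19, p = 0.0225). Without the 2 rats the lists for A2-type genes and astrocyte identity each had 1 higher gene, Slc10a6 (0.90 ± 0.28, p = 0.00492) and Mlc1 (0.20 ± 0.07, p = 0.0122).

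In AKO vs. WT, 9.34% of all genes tested had an unadjusted p-value under 0.05. Among genes of the IL-6 family and STAT3 signalling, 1 of 14 did (median difference 0.22). It was Cebpd, a transcription factor of the acute-phase response (0.73 ± 0.34, p = 0.0437, adjusted p = 0.520), at 54.9 to 144.7 in WT rats and 62.4 to 839 in AKO rats, where the next highest after 4KAH27 had 249. Socs3 differed by 0.91 ± 0.45 (p = 0.0585). Without 4KAH27 and 4KAH35 the difference was 0.30 for Cebpd (p = 0.1495) and 0.32 for Socs3 (p = 0.0946), and Cebpb, a related factor, was the 1 gene of the list under 0.05 (p = 0.0397). Of 9 S100 genes, 4 were higher in AKO rats, S100a8 (1.78 ± 0.52, p = 0.00263, adjusted p = 0.258), S100a9 (1.81 ± 0.60, p = 0.00635), S100a6 and S100a11. Without the 2 rats this list had 2, S100a8 (1.10 ± 0.33, p = 0.00358) and S100a9 (1.04 ± 0.41, p = 0.0187). Of 6 small heat shock genes other than Hspb1, 1 was higher: Hspb8, a chaperone of the autophagy of misfolded proteins, was 264 to 611 in WT rats, 318 to 535 in HIP rats and 445 to 691 in AKO rats (0.47 ± 0.12, p = 0.00100, adjusted p = 0.177). Its HIP vs. AKO difference was −0.36 ± 0.10 (p = 0.00137, adjusted p = 0.149). Hspb6 had the next smallest p-value in AKO vs. WT (−0.19 ± 0.19, p = 0.324). Of 6 genes of metalloproteinase inhibitors and hyaluronan, 2 were higher, the metalloproteinases Mmp2 (0.44 ± 0.18, p = 0.0254) and Mmp14 (0.59 ± 0.28, p = 0.0459). Without the 2 rats Mmp14 had a p-value of 0.104. Of 9 intermediate filament genes other than Gfap and Vim, 2 were lower, the neuronal filaments Ina (−0.30 ± 0.13, p = 0.0318) and Nefh (−0.59 ± 0.26, p = 0.0336). Without the 2 rats the p-value of Ina was 0.0917.

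In HIP vs. WT the same lists were near the background, which was 2.57% of all genes tested with an unadjusted p-value under 0.05. In 8 of the 10 lists, 0 genes passed the unadjusted threshold. The exceptions were Lmna, a nuclear lamin (−0.18 ± 0.07, p = 0.0191, adjusted p = 0.999), and S100a9 (0.91 ± 0.43, p = 0.0451, adjusted p = 0.999), which stood at 0 to 9.90 in WT rats (median 4.87) and 2.11 to 16.5 in HIP rats (median 8.41). The pan-reactive genes with the smallest p-values were Hspb1 and Osmr (p = 0.0846 and 0.111). Those of the A2-type, identity and A1-type lists included Cd109 (0.54 ± 0.27, p = 0.0589), Agt (−0.40 ± 0.20, p = 0.0606), Slc10a6 (0.50 ± 0.28, p = 0.0892), Gja1 (0.18 ± 0.11, p = 0.127) and Ggta1 (0.18 ± 0.14, p = 0.215). The smallest p-values of the IL-6, small heat shock and metalloproteinase lists were 0.120 for Tyk2, 0.216 for Cryab and 0.0834 for Mmp2. In HIP vs. AKO the pan-reactive list had 6 genes lower and 1 higher in HIP rats of 12 (median −0.59), and the S100 list 4 lower of 9 (median −0.54). The 6 include Lcn2, which was picked on this contrast. Of all genes tested, 12.7% had an unadjusted p-value under 0.05, and 6.9% did so with the lower mean in HIP rats. Without 4KAH27 and 4KAH35 the counts of both lists were equal, against 12.9% of all genes. The higher gene, Steap4, then passed adjustment (1.61 ± 0.27, adjusted p = 0.00869). Of the IL-6 list, Socs3 (−1.21 ± 0.45, p = 0.0127, adjusted p = 0.272) and Cebpd (−0.75 ± 0.33, p = 0.0315) were lower in HIP rats. Without 4KAH27 and 4KAH35 they differed by −0.62 (p = 0.00384) and −0.32 (p = 0.0960). In astrocyte identity, S100b, a calcium-binding protein of astrocytes, was lower in HIP rats (−0.25 ± 0.09, p = 0.00833, adjusted p = 0.243), as was Mlc1 (−0.19 ± 0.06, p = 0.00641), and Kcnj10, a potassium channel of astrocytes, was higher (0.24 ± 0.11, p = 0.0414, adjusted p = 0.370). In the A2-type list, Slc10a6 differed by −0.48 ± 0.17 (p = 0.00849, adjusted p = 0.244) and Sphk1, sphingosine kinase 1, by −0.68 ± 0.26 (p = 0.0144, adjusted p = 0.282). The p-value of Sphk1 was 0.0693 without 4KAH27 and 4KAH35. Among filaments, Lmna had the lower mean in HIP rats (−0.25 ± 0.09, p = 0.00812) and Ina the higher (0.30 ± 0.11, p = 0.00988). The A1-type and metalloproteinase lists had 0 genes under 0.05, with Fkbp5 (−0.41 ± 0.21, p = 0.0595) and Has3 (−0.60 ± 0.30, p = 0.0605) the closest, and without the 2 rats Fkbp5 had a p-value of 0.0345.

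Markers of microglia and neutrophils were also higher on average in AKO rats. Of 11 microglia markers, 6 had an unadjusted p-value under 0.05 in AKO vs. WT, all higher (median difference 0.31), against 5.23% of all genes higher in AKO rats, and 0 passed adjustment. The smallest p-value was that of Itgam, the integrin CD11b (0.87 ± 0.18, adjusted p = 0.0623). Not all markers went this way: 9 of the 11 had a positive difference, and the lowest difference was −0.48. Tmem119 had a median of 404 in WT rats and 253 in AKO rats. Without 4KAH27 and 4KAH35, 8 of the 11 were under 0.05, all higher, and 0 passed adjustment. The mean log2 level of the list was 7.88 to 8.78 in WT rats, 8.14 to 9.70 in HIP rats and 8.14 to 9.08 in AKO rats. Of 8 neutrophil markers 5 were measured, and Mpo, Elane and Ltf were not matched by symbol. Of the 5, 4 had an unadjusted p-value under 0.05 with the higher mean in AKO rats (median difference 1.33), against the same 5.23% of all genes. Without 4KAH27 and 4KAH35 they were 3, Camp, S100a8 and S100a9, and 0 of the 5 passed adjustment with or without these rats. Their mean log2 level was 0.890 to 2.11 in WT rats, 0.862 to 2.72 in HIP rats and 1.53 to 5.21 in AKO rats, and Camp, a granule peptide gene, was at 0 in 4 WT rats, 4 HIP rats and 0 AKO rats. The highest level, 5.21, was in rat 4KAH35, with Camp at 19.4 and Ngp at 58.2, and its Lcn2 was 22.8. The second highest, 4.62, was in rat 4KAH27, which had the highest S100a8, S100a9, Cxcr2 (27.4) and Lcn2 of all rats. The other AKO rats had levels of 1.53 to 3.07. Over all 30 rats, deviations of Lcn2 from the group mean had r = 0.09 and rho = −0.07 with those of the neutrophil markers. The r was −0.21 without rat 4KAH27 and −0.38 without the 5 libraries that stood apart. The part of these cells in the difference of Lcn2 and the other members was not tested.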

How the data were processed

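Brain RNA of 30 rats was analyzed (WT, HIP and AKO, 10 each). Alignment to rn7 was done by the authors in Partek (10.0.22.0228) with STAR 2.7.8a per the labels, followed by counting on Ensembl 105 genes and DESeq2 normalization. A signal on the count scale was deposited, without whole counts, and 80.8 to 84.4% of values below 100 in a rat were whole multiples of 1 step within 2% of a step (0.02), so no count test was run. Estimated reads per rat were 12.9 to 23.6 M. Genes, lists and tests were chosen with earlier results of these data known.

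Groups were compared by limma 3.58.1 in R 4.3.3 (trend, pseudocount 1, mean of at least 1, the rats of both groups, no covariates), checked on simulated data. Replicates are separate rats. Named genes are all members, up to 4 genes per list and comparison with an adjusted p-value under 0.05 or else the 2 with the smallest p-values, and the 5 most alike to Lcn2, Gfap, Vim and Timp1 by r. Other genes were named after their values were seen. Python 3.11.15 with pandas 2.3.3 was used for descriptions.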

Additional observations from a re-analysis of the deposited data

Results flagged for a closer look

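A rat was singled out where its gap to the nearest rat of its group exceeded the 95% critical share of the range of the group in Dixon's test for 10 samples. This was checked in 51 groups (9 genes and 8 marker lists, 3 groups each), and 15 had such a rat, where chance gives about 1 in 20, or 2.55. That figure assumes normally spread values and independent checks. Genes were checked on counts without logs, and the same rats recur, 4KAH27 in 5 of the 15. AKO rat 4KAH27 was the highest of its group for Lcn2 (281), Cd44 (699), Osmr (399), Timp1 (885) and Hspb1 (324). AKO rat 4KAH35 was the highest for Vim (3142). WT rat 10RT43 was the highest for Aqp4 (16620), with cerebellum markers at a mean log2 level of 13.02 and microglia markers at 7.88, the lowest of WT rats. HIP rat 10RT46 was the highest for Hspb1 (264) and for choroid plexus markers (9.18), for which AKO rat 7AKO19 also stood apart (6.95). WT rat 10RT51 was the highest for S100a6 (140.9). HIP rat 12RT23 stood apart in cerebellum markers (9.99) and HIP rat 10RT48 in microglia markers (9.70).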

How the results depend on the processing

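The direction of Timp1, Cd44, Gfap, Vim, S100a6 and Hspb1 in AKO vs. WT and HIP vs. AKO was kept under every alternative run. That of Lcn2 was kept in AKO vs. WT. Its direction in HIP vs. AKO was also kept, but this is no separate evidence because the gene was picked on that contrast. All counts of members in HIP vs. AKO include Lcn2, which was picked on that contrast. With sample-quality weights, 2 members and 885 of all genes had an unadjusted p-value under 0.05 in HIP vs. WT. The same weights gave 3930 genes unadjusted and 4 members and 857 genes adjusted in AKO vs. WT, and 4289 genes unadjusted and 6 members and 1143 genes adjusted in HIP vs. AKO. Under them the sign turned for Vim (0.10) and Aqp4 (0.13) in HIP vs. WT, for Aqp4 in AKO vs. WT (0.15) and for Osmr (0.11) and Aqp4 (−0.020) in HIP vs. AKO. Lcn2 in HIP vs. WT turned to −0.076 with a pseudocount of 5 and to −0.095 with quantile normalization. The number of the library as a covariate turned Gfap (0.056), Vim (0.049) and Aqp4 (0.019) in HIP vs. WT and gave 1 member (Lcn2) and 31 genes adjusted in AKO vs. WT. Striatum markers as a covariate gave 1 member and 1133 genes unadjusted in HIP vs. WT. Adjusted counts of all genes were 31 in AKO vs. WT with meningeal markers, 46 in HIP vs. AKO with myelin markers, and 27 and 56 with all 30 rats in 1 fit, where 1 member (Lcn2) passed in AKO vs. WT.

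Without rats 10RT43 and 10RT46, 1 member (Hspb1) and 817 genes were unadjusted calls in HIP vs. WT, 2 members and 70 genes adjusted calls in HIP vs. AKO, and Aqp4 turned to 0.12 in HIP vs. WT and 0.058 in AKO vs. WT. The next alternatives were chosen after seeing the data. Without 12RT23 as well, 1 member was an unadjusted call in HIP vs. WT, 2 members and 44 genes adjusted calls in HIP vs. AKO, and Lcn2 (−0.036) and Aqp4 (0.082) turned in HIP vs. WT. Without 4KAH27 and 4KAH35, 2 members and 1555 genes were unadjusted calls in AKO vs. WT. In the same setting 32 and 61 genes were adjusted calls in AKO vs. WT and HIP vs. AKO, and Osmr turned to 0.094 in HIP vs. AKO. Without all 5 rats the adjusted counts were 55 and 87 genes with 2 members in HIP vs. AKO, and Aqp4 in AKO vs. WT (0.028) and Osmr in HIP vs. AKO (0.044) turned. The cause of these changes was not tested.

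Leaving out each rat in turn, members with an unadjusted p-value under 0.05 numbered 0 to 1 in HIP vs. WT (1 without 10RT46 or 10RT55), 3 to 6 in AKO vs. WT and 5 to 7 in HIP vs. AKO. Genes numbered 309 to 779 unadjusted in HIP vs. WT (779 without 10RT46). Adjusted, there were 10 to 39 genes in AKO vs. WT (39 without 4KAH27, 38 without 6KAH99, 10 or 11 without 10RT38, 10RT45, 10RT47, 6AKO52 or 7AKO19), and 1 to 2 members (2 without 10RT46) and 17 to 70 genes in HIP vs. AKO (70 without 10RT46, 58 without 4KAH27, 17 to 19 without 10RT41, 10RT42, 10RT52, 10RT53, 12RT23, 6AKO52, 7AKO19 or 7AKO28). Differences ranged from −0.083 to 0.083 for Vim, −0.14 to 0.30 for Lcn2 and −0.097 to 0.092 for Aqp4 in HIP vs. WT, from −0.13 to 0.058 for Aqp4 in AKO vs. WT, and from −0.43 to 0.045 for Osmr and −0.045 to 0.091 for Aqp4 in HIP vs. AKO. No paired analysis was possible because the labels give rats no shared replicate number. Depth limits Lcn2 most, which stood at 3 reads or fewer in 8 rats.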
